A study of Mus musculus with 28 samples.

Results

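The 39 Hox genes of the mouse clusters a, b, c and d were followed through 28 poly(A) RNA-seq libraries from cells that were reprogrammed towards pluripotency. Members were taken by name from the deposited count table, as every row whose symbol is Hox, a cluster letter and a paralogue number. This gave 39 of 37620 listed genes. Hoxa3 was listed under a pair of identifiers, and the record with 4315 counts was kept in place of the one with 0.

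The libraries came from 14 groups of 2, WT and K36M cells at each of 7 stages. K36M names a lysine-to-methionine change of histone H3 that lowers methylation of lysine 36, and WT library names carry H3_3. The labels do not say which H3 gene was changed or how it and OKSM were expressed, so no row of the table checks the genotype. Stage d0 is mouse embryonic fibroblasts (MEFs), d2, d4, d6 and d8 are days of reprogramming with the factor set called OKSM, iPSC is induced pluripotent stem cells, and noOKSM is MEFs without OKSM. Culture medium changed with stage (DMEM and serum for MEFs, AGi during reprogramming, S/L for iPSCs), so stage and medium cannot be told apart where d0 or iPSCs are set against other stages.

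Hox genes encode homeodomain transcription factors that give cells a position along the body axis and the limb. In each cluster the genes lie in a row and are numbered so that low paralogue numbers are switched on early and near the head, and high numbers late, near the tail or the tip of a limb. Fibroblasts keep the Hox pattern of the place they came from, while pluripotent cells hold the clusters silent under Polycomb proteins. The members are grouped here as anterior (paralogues 1 to 3), central (4 to 8) and posterior (9 to 13).

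On mm9, cluster a spans chr6:52105366-52210874 on the minus strand and holds 11 members. Cluster b spans chr11:96055630-96229570 with 10 members, cluster c chr15:102751534-102867274 with 9 and cluster d chr2:74506367-74603200 with 9, each on the plus strand. Of the 39 members 35 had enough counts to be tested. Hoxa13 (36 counts over all libraries), Hoxb1 (44), Hoxd1 (24) and Hoxd12 (24) did not, and 16 of the counts of Hoxb1 lay in K36M d6 replicate 1. Overlap may affect the counts of neighbours, since 67.4% of the exon bases of Hoxd4 overlap Hoxd3 on the same strand and 40.4% of those of Hoxb8 overlap Hoxb7. On the opposite strand Hoxb3os covers 49.4% of Hoxb2 and 37.9% of Hoxb3, and Hoxa11as covers 38.6% of Hoxa11. Other genes on the opposite strand cover 25.0% of Hoxa3 and 20.4% of Hoxa7. The strand setting of the counting is not given in the sources used here.

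The stretches before the start of 4 members are shown because these genes follow different courses below: Hoxa5 and Hoxb8 were among the members lower in K36M from d2, and Hoxd8 and Hoxd4 were higher at WT d4 than at WT d2. Each is the 250 bases up to the RefSeq start, which is also the start of the gene in the annotation, 5′ to 3′ on the strand of the gene, with each CG dinucleotide, the site of DNA methylation, in capitals.
Hoxa5 at chr6:52154587-52154836, minus strand: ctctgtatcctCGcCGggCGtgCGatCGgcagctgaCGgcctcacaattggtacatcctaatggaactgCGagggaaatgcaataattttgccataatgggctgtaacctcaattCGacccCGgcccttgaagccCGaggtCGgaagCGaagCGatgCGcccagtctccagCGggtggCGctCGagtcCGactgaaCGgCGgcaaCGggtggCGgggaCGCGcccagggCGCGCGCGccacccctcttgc
Hoxb8 at chr11:96142969-96143218, plus strand: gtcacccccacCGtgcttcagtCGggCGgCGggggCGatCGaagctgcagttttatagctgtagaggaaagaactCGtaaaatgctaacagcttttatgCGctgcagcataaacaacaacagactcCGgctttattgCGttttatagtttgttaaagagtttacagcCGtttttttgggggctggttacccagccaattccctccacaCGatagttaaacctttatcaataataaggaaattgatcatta
Hoxd8 at chr2:74542422-74542671, plus strand: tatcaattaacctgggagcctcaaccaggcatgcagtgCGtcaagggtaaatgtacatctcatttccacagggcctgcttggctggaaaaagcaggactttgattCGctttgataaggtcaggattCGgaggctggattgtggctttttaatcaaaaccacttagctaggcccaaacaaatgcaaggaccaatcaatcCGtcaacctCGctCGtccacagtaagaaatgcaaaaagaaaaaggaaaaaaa
Hoxd4 at chr2:74559785-74560034, plus strand: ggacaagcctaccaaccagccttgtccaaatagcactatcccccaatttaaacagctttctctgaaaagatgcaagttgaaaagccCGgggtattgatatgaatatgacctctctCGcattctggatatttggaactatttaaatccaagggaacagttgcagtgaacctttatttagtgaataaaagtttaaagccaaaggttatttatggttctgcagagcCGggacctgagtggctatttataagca
The stretch of Hoxa5 holds 28 CG dinucleotides and that of Hoxb8 12, while those of Hoxd8 and Hoxd4 hold 6 and 3. Those of Hoxa2 and Hoxa7, also lower in K36M from d2, hold 6 and 7. Unlike the 4 shown, they end 582 and 3281 bases from the start of the gene in the annotation and overlap annotated exons. Those of Hoxd3 and Hoxd9, both higher at WT d4 than at WT d0, hold 12 and 13. They end 64 and 83 bases from the annotated start and also overlap annotated exons. Whether CG counts go with the courses was not tested. The sequences are from RefSeq (table build GRCm38.p6) and were placed on mm9 by exact match. The table matched 22 of the 39 members with 24 start sites, whose median was 12.5 CG dinucleotides in 250 bases, against 6 over 32851 start sites of the table. Only 9 of the 24 member stretches hold no annotated exon. The motif TGATTNAT is a core bound by Hox proteins with their Pbx partners. On either strand it was found in 2 of the 24 member stretches (8.33%), those of Hoxa2 and Hoxd11, and in 2.83% of the whole table. The homeodomain core TAATTA was in 2 (8.33%), both of Hoxd11, and in 4.84% of the table. So few stretches do not allow the shares to be compared. Neither motif is in the 4 stretches shown.

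Total counts per library ran from 17507521 to 35622279. The labels do not state that the libraries of a group are separate cultures; p-values therefore reflect only how far such libraries differ, which can be technical. Summed fibroblast markers were 33808 and 41207 CPM (counts scaled to the library size) in WT d0 and 43235 and 43698 in K36M d0, with none of the 12 at 0. Pluripotency markers summed to 6166 and 6211 CPM in WT iPSCs and to 5849 and 6220.1 in K36M iPSCs, against at most 1.33 CPM in the d0 libraries. In these bulk libraries fewer cells that express a gene and less RNA per cell cannot be told apart.

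In WT MEFs at d0 genes of clusters a, b and c led. Per kilobase of exon, Hoxc8, a gene of thoracic segments, stood at 28.9 ± 3.33 CPM (SD, n = 2), Hoxb9 at 25.2 ± 0.854, Hoxa5 at 21.2 ± 3.32 and Hoxc6 at 17.7 ± 0.720. Neighbours in the order Hoxc8, Hoxb9, Hoxa5, Hoxc6 differed by less than the sum of their SDs. Next came Hoxc10 at 9.36 ± 0.315 CPM per kilobase and Hoxb6 at 8.00 ± 0.607, followed by Hoxc5, Hoxb4, Hoxc9, Hoxa7 and Hoxc4, which lay between 5.22 and 7.18. Members of cluster d were low, with Hoxd8 the highest of them at 2.03 ± 0.157 and Hoxd9 at 0.456 ± 0.0163. Hoxb1 and Hoxd12 had 0 counts in both WT d0 libraries.

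**Figure D1:**
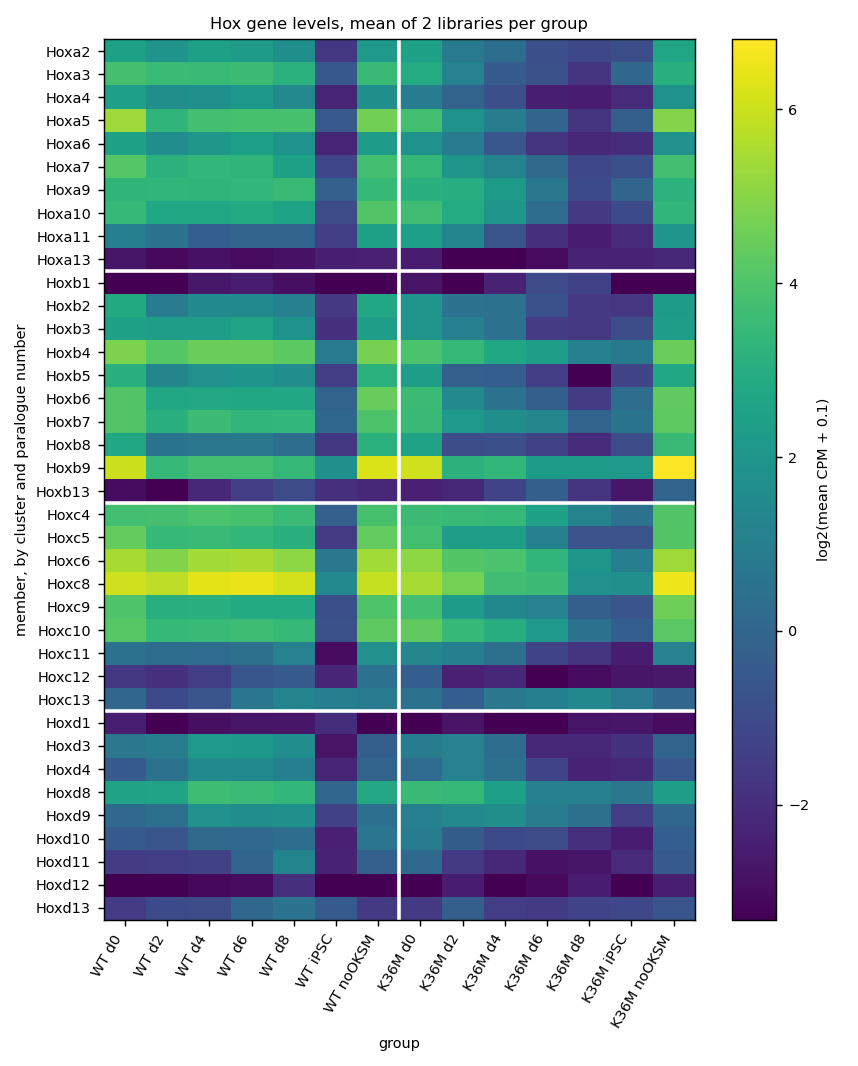
Mean level of 38 members in the 14 groups, as log2 of the mean CPM of 2 libraries plus 0.1, by cluster (rows) and by genotype and stage (columns). Most members of clusters a, b and c are high in both MEF stages of both genotypes and low in both iPSC groups, and K36M cells at d8 lie nearer to iPSCs than WT cells at d8 do. Hoxa13, Hoxb1, Hoxb13 and Hoxc12 are low in WT d0 as well, and Hoxc13 is higher in WT iPSCs than in WT d0.

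Summed over the 39 members, WT libraries held 479 and 443 CPM of Hox RNA at d0, 262 and 257 at d2, 358 and 317 at d4, 346 and 353 at d6, 298 and 277 at d8, and 19.5 and 26.7 as iPSCs. K36M libraries held 365 and 353 CPM at d0, 166 and 161 at d2, 115 and 106 at d4, 75.9 and 55.0 at d6, 33.4 and 31.1 at d8, and 24.1 and 32.2 as iPSCs. Both WT libraries were lower at d2 than at d0 and higher again at d4, whereas each K36M pair lay below the pair of the stage before until d8. The genotypes did not overlap from d0 to d8 and overlapped as iPSCs. In MEFs without OKSM the order was the other way, with 468 and 455 CPM in WT and 509.6 and 525 in K36M.

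**Figure D2:**
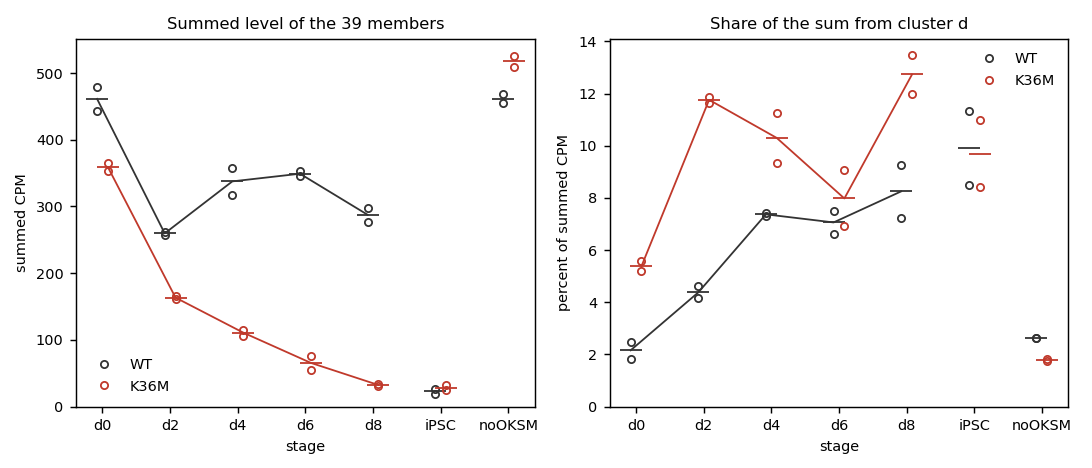
Left, summed CPM of the 39 members by stage, and right, the percent of that sum from cluster d; circles are libraries, short bars are group means and lines join d0 to d8. K36M cells reach 33.4 and 31.1 CPM at d8, near the iPSC libraries, and the share of cluster d in WT goes from 1.84 and 2.48% at d0 to 7.31 and 7.43% at d4.

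The WT course gives the Hox levels of cells with OKSM and without K36M, though against d0 stage and medium cannot be told apart. At d2, 18 of 35 members were lower than at d0 and 0 higher (edgeR's quasi-likelihood test, adjusted p below 0.05; 57.8% of all genes tested passed, 27.1% higher and 30.7% lower). At an unadjusted p below 0.05 the count was 19, and DESeq2 called 18, of which 0 were higher. Cluster b gave 7 of 9 of these, with a median log2 fold change of -1.79, and cluster d 0 of 7. Hoxb9 stood at 63.2 and 66.3 CPM at d0 and at 11.0 and 10.9 at d2, a log2 fold change of -2.56 ± 0.169 (SE; adjusted p = 8.00e-12). Both d2 libraries lay far below both d0 libraries. Hoxb8, its neighbour, went from 6.33 and 6.89 CPM to 1.63 and 1.12 (-2.27 on the log2 scale) and Hoxa5, which patterns neck and lung, from 44.2 and 35.4 to 9.35 and 10.0 (-2.04). Hoxa9, Hoxc4, Hoxb3 and Hoxa3 had log2 fold changes between -0.25 and 0.07 and did not pass.

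From d2 to d4 several WT members rose. In that comparison, chosen after the values were seen, 11 members were higher and 1, Hoxa11, lower (32.2% of all genes tested passed, 17.0% higher and 15.2% lower), and 5 passed without WT d2 replicate 1 or without WT d2 replicate 2. Hoxd8 stood at 5.26 and 5.87 CPM at d0, 5.64 and 6.10 at d2 and 13.3 and 12.1 at d4. Hoxd4 stood at 0.483 and 0.816 CPM at d0, 1.18 and 1.43 at d2 and 2.60 and 2.92 at d4. For both genes the d4 libraries lay above the d0 and d2 libraries.

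Against d0, 19 of 35 members differed at WT d4, 5 higher and 14 lower (57.4% of all genes tested passed, 28.3% higher and 29.1% lower). Of the 5, 4 were of cluster d, Hoxd4 (2.08 ± 0.392), Hoxd9 (1.77 ± 0.286), Hoxd3 (1.48) and Hoxd8 (1.18 ± 0.148), and the other was Hoxc8 (0.31 ± 0.132). Hoxd3 and Hoxd4 share exon bases, and how reads in these bases were counted is not known here. At d6 22 members differed (8 higher, 14 lower; 59.0% of all genes tested passed, 29.1% higher and 29.9% lower) and at d8 30 (9 higher, 21 lower; 64.0% of all genes tested passed, 32.7% higher and 31.4% lower), with 6 of the 7 tested members of cluster d higher than at d0 at d6 and 6 at d8. Hoxd11, a gene of the forearm and lower trunk, stood at 0.215 and 0.255 CPM at d0 and at 1.37 and 3.17 at d8.

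WT iPSCs held little Hox RNA. Compared with d0, 30 of 35 members were lower and 1 higher (77.5% of all genes tested passed, 40.1% higher and 37.4% lower), with a median log2 fold change of -4.57. Hoxc5, a cervical gene, went from 22.0 and 20.0 CPM to 0.200 and 0.290 (-6.36 ± 0.247, adjusted p = 1.54e-16), and Hoxa5 from 44.2 and 35.4 to 0.401 and 0.828 (-5.96 ± 0.251). The single member higher was Hoxc13, a gene of hair follicles and nails, at 0.912 and 0.918 CPM at d0 and 1.85 and 1.99 in iPSCs (1.07 ± 0.349, adjusted p = 0.00819). Calls for Hoxd4 (-2.47) and Hoxd10 (-2.72), which had few counts, were lost without WT d0 replicate 2 (-2.04, adjusted p = 0.0502, and -2.18, adjusted p = 0.0515). Against WT d8, a comparison added after the values were seen, 33 members were lower in WT iPSCs and 0 higher (70.0% of all genes tested passed, 35.8% higher and 34.2% lower), and 0 of the 35 had a lower mean at WT d8 than in WT iPSCs.

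The comparison of genotypes in MEFs at d0 asks whether the Hox pattern differed before reprogramming. Members that passed among the anterior genes were lower in K36M, those among the posterior genes were higher, and central genes gave 9 lower and 1 higher of 15. Of 35 members 16 passed, 5 higher and 11 lower (15.9% of all genes tested passed, 7.6% higher and 8.31% lower). Anterior genes gave 2 lower of 6 and posterior genes 4 higher and 0 lower of 14. Apart from Hoxa11, the members higher (Hoxd8, Hoxd9, Hoxd10 and Hoxd11) are all of cluster d, so class and cluster are mixed in these calls. Those of Hoxd9, Hoxd10 and Hoxd11 were lost without single libraries, as given below. Over the 35 members Spearman's rho between the paralogue number and the log2 fold change was 0.63. It is given as a description, since members share libraries and several posterior members have few counts.

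The largest fall at d0 was that of Hoxa5, with 44.2 and 35.4 CPM in WT and 13.1 and 13.7 in K36M (-1.57 ± 0.167, adjusted p = 5.01e-07). Next were Hoxa4, with 5.47 and 4.75 against 1.70 and 2.07 CPM, and Hoxa3, with 13.6 and 14.6 against 7.68 and 6.95 (-0.95 ± 0.157, adjusted p = 0.000158). None of these overlapped between genotypes. Hoxb4, known from the expansion of blood stem cells, stood at 30.5 and 25.0 against 15.6 and 14.5 CPM (-0.88 ± 0.168), and Hoxa7 at 18.3 and 16.6 against 11.0 and 10.5 (-0.70 ± 0.149). Hoxb2, Hoxb5, Hoxb7, Hoxc5, Hoxc6 and Hoxc8 made up the rest of the 11. Hoxb9 stood at 63.2 and 66.3 CPM in WT and 63.3 and 70.2 in K36M and did not pass (0.04 ± 0.153, adjusted p = 0.916).

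Higher in K36M at d0 were Hoxd8, with 11.4 and 11.2 CPM against 5.26 and 5.87 in WT (1.02 ± 0.150, adjusted p = 3.67e-05), and Hoxa11, with 5.71 and 4.51 against 2.31 and 1.63 (1.38 ± 0.271, adjusted p = 0.000961). Hoxd9 (1.96 and 2.12 against 1.02 and 0.969 CPM; 1.03), Hoxd10 (1.92 and 1.70 against 0.429 and 0.816; 1.52) and Hoxd11 (0.982 and 1.01 against 0.215 and 0.255; 2.06 ± 0.693, adjusted p = 0.0457) were also higher. The antisense gene Hoxa11as, whose exons overlap Hoxa11, was higher as well (2.20 ± 0.409), and without the strand setting the pair cannot be told apart.

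The count of 16 at d0 fell to 10 without K36M d0 replicate 1, to 8 without K36M d0 replicate 2 and to 9 without WT d0 replicate 1. Hoxa3, Hoxa5, Hoxa7, Hoxa11, Hoxb4 and Hoxd8 passed whichever d0 library was left out. Leaving out any of the 4 libraries ended the calls of Hoxc6 (adjusted p from 0.0544 to 0.211), Hoxd9 (0.0832 to 0.130) and Hoxd11 (0.119 to 0.244). Those of Hoxb5 and Hoxd10 ended without either K36M d0 library or WT d0 replicate 1 (adjusted p from 0.137 to 0.260 and from 0.0558 to 0.237), that of Hoxc8 without K36M d0 replicate 2 or WT d0 replicate 1 (0.0686 to 0.0982) and that of Hoxc5 without K36M d0 replicate 2 (0.0571).

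**Figure D3:**
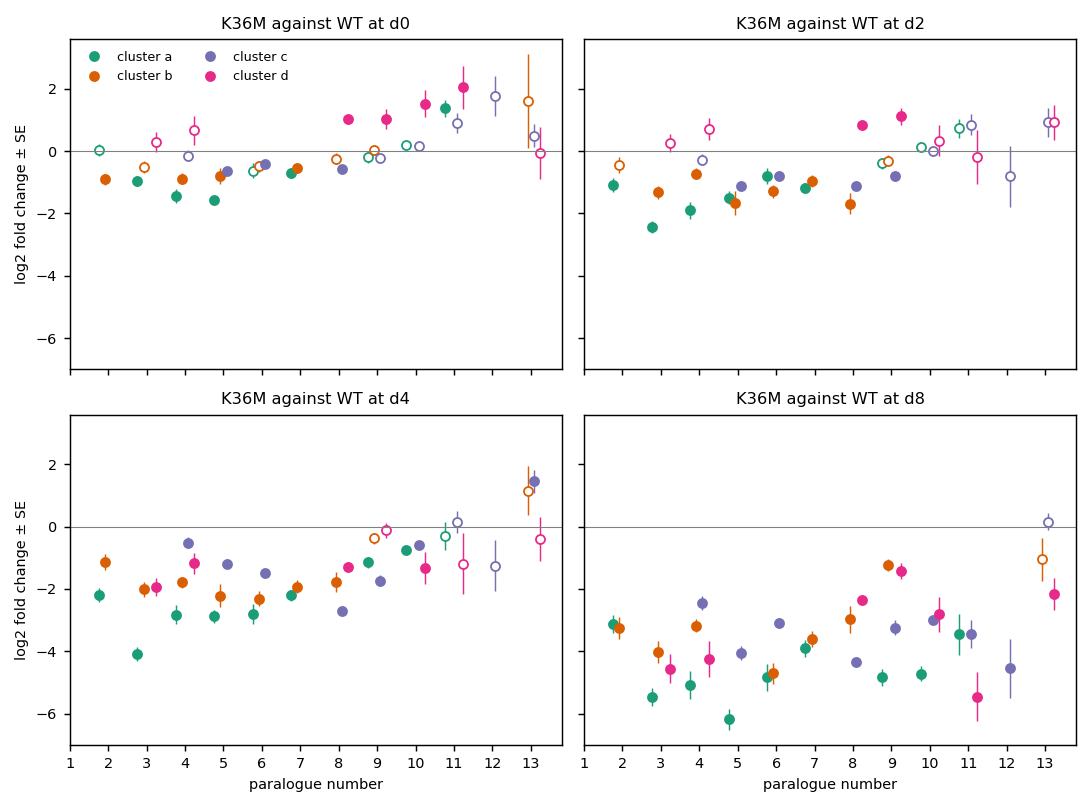
Log2 fold change of K36M against WT (vertical, ± SE) against the paralogue number (horizontal) at d0, d2, d4 and d8, coloured by cluster; filled points passed the test and 34 tested members are drawn, less those with 0 counts in either group of a panel. At d0 and d2 most central genes lie below 0 and several posterior genes above it, and at d8 the members drawn other than Hoxc13 lie below 0.

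Other genes that mark cell types and positions also differed at d0, and their part in the Hox difference was not tested. Of all genes tested at d0 7.6% were higher in K36M and 8.31% lower. Fibroblast markers were higher in K36M for 7 of 12 and lower for 0, with Pdgfra at 1.84 ± 0.181. Macrophage markers were lower for 4 of 7, and summed to 43.4 and 46.9 CPM in WT and 13.3 and 13.6 in K36M. Skeletal muscle markers summed to 445 and 494 CPM in WT against 277 and 289 in K36M, with 2 of 3 tested lower, and epithelial markers to 16.5 and 19.9 against 31.0 and 31.1. Endothelial markers summed to 8.64 and 11.1 CPM against 7.55 and 8.34, and neuron markers to 146 and 151 against 159 and 164. Limb and trunk position genes gave 2 higher and 2 lower of 16 tested and head mesenchyme genes, which lie where Hox genes are silent, 4 higher and 1 lower of 10.

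During reprogramming Hox RNA was scarcer in K36M than in WT. Compared day by day, at d2 18 of 35 members passed, 2 higher and 16 lower (20.1% of all genes tested passed, 9.74% higher and 10.4% lower). At d4 27 passed, 1 higher and 26 lower (52.9% of all genes tested passed, 27.1% higher and 25.8% lower). At d6 34 passed, 1 higher and 33 lower (70.9% of all genes tested passed, 37.3% higher and 33.7% lower), and at d8 33, 0 higher and 33 lower (60.6% of all genes tested passed, 31.6% higher and 29.0% lower). The median log2 fold change over the 35 members was -0.54, -1.33, -2.49 and -3.46 on these days in order, while the median over all genes tested stayed between 0 and 0.08. With the 4 days fitted jointly and day as a term, 29 members were lower and 1 higher (58.5% of all genes tested passed, 30.2% higher and 28.2% lower). That fit takes the difference as shared by the 4 days. Changes of the difference between days stay in its residual, so its fold changes do not describe any given day. A joint test of whether the genotypes' difference departs from that of d0 at any stage of the course up to iPSC passed for 34 of 35 members (75.8% of all genes tested), Hoxc13 being the exception.

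The day on which a member first passed as lower was read for each paralogue class. Of 15 central members 12 were lower from d2 and 3 from d4. The 6 anterior members split into 3 from d2, such as Hoxa3 and Hoxb3, and 3 from d4, Hoxb2 and Hoxd3 among them. Of 14 posterior members 1, Hoxc9, was lower from d2, 4 from d4 (Hoxa9, Hoxa10, Hoxc10 and Hoxd10), 7 from d6 (Hoxa11, Hoxb9, Hoxc11, Hoxc12, Hoxd9, Hoxd11 and Hoxd13) and 2, Hoxb13 and Hoxc13, on none of the days. Several posterior genes have few counts, which limits how early a fall can pass, and the difference between classes was not tested.

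Among anterior genes Hoxa3, which patterns the pharyngeal arches, stood at 11.4 and 12.3 CPM in WT and 2.39 and 1.95 in K36M at d2 (-2.43 ± 0.186, adjusted p = 1.58e-09). At d4 the values were 12.2 and 10.8 against 0.640 and 0.704 CPM (-4.08 ± 0.228) and at d8 9.25 and 8.41 against 0.192 and 0.194 (-5.47 ± 0.292). WT Hoxa3 stood at 13.6 and 14.6 CPM at d0 and K36M Hoxa3 was by d4 at the level of K36M iPSCs (0.934 and 0.903 CPM) or below.

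Central genes were lower in K36M on each day from d4. Hoxc8 stood at 54.0 and 56.4 CPM in WT and 26.0 and 25.3 in K36M at d2 and at 71.5 and 66.4 against 3.69 and 3.05 at d8 (-4.35 ± 0.172, adjusted p = 1.64e-15). Hoxa5 stood at 9.35 and 10.0 against 3.27 and 3.63 CPM at d2 and at 16.7 and 12.4 against 0.240 and 0.145 at d8 (-6.19 ± 0.329). Hoxc6 stood at 31.5 and 27.5 against 17.1 and 17.2 at d2 and 35.1 and 32.2 against 3.40 and 4.50 at d8 (-3.09 ± 0.154). For these genes the genotypes did not overlap at d2 or d8.

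In cluster b, Hoxb5 went from 2.37 and 2.51 CPM in WT and 0.874 and 0.651 in K36M at d2 to 3.61 and 2.42 in WT and 0 counts in both K36M libraries at d8. Against 177 counts in WT this is at least 39.9-fold lower, counting 3 over the K36M group. Hoxb6 stood at 6.89 and 6.02 against 0.192 and 0.290 CPM at d8 (-4.71 ± 0.332), Hoxb4 at 23.4 and 15.0 against 2.59 and 1.60 (-3.18 ± 0.215) and Hoxa7 at 6.01 and 5.00 against 0.240 and 0.484 (-3.90 ± 0.273). Hoxb8 stood at 1.63 and 1.12 against 0.414 and 0.434 CPM at d2. Hoxa4 had 3 counts in K36M d8 against 163 in WT, a ratio of 36.8 (95% exact counting interval 12.4 to 180.2).

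Among posterior genes of clusters a and c, Hoxc9 was lower from d2, Hoxc13 on none of the days and the other tested members from d4 or d6. Hoxa9, a gene of the trunk and of blood progenitors, stood at 11.3 and 9.03 CPM in WT and 7.73 and 7.81 in K36M at d2 and did not pass (-0.38 ± 0.171, adjusted p = 0.127). At d4 it stood at 10.7 and 9.07 against 4.77 and 4.13 (-1.14), at d6 at 10.2 and 10.4 against 1.20 and 1.89 (-2.72) and at d8 at 11.2 and 11.2 against 0.432 and 0.339 (-4.84 ± 0.272). The WT level of Hoxa9 lay between 9.03 and 11.3 CPM in every library from d0 to d8. Hoxc10 went from 11.6 and 10.3 against 11.2 and 10.7 at d2 (0.01 ± 0.122) to 11.2 and 10.7 against 1.29 and 1.40 at d8 (-3.01 ± 0.162). Hoxc9 stood at 8.01 and 6.39 against 0.575 and 0.919 CPM at d8 (-3.25 ± 0.236).

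Hoxb9 had already fallen in WT by d2. At d4 it stood at 14.6 and 12.7 CPM in WT and 11.6 and 9.25 in K36M (-0.38 ± 0.178, adjusted p = 0.0775), and at d8 at 11.0 and 10.0 against 4.41 and 4.55 (-1.23 ± 0.198, adjusted p = 1.24e-05). K36M Hoxb9 stood at 9.11 and 8.68 CPM at d2 after 63.3 and 70.2 at d0, so both genotypes had lost most of it by that day.

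**Figure D4:**
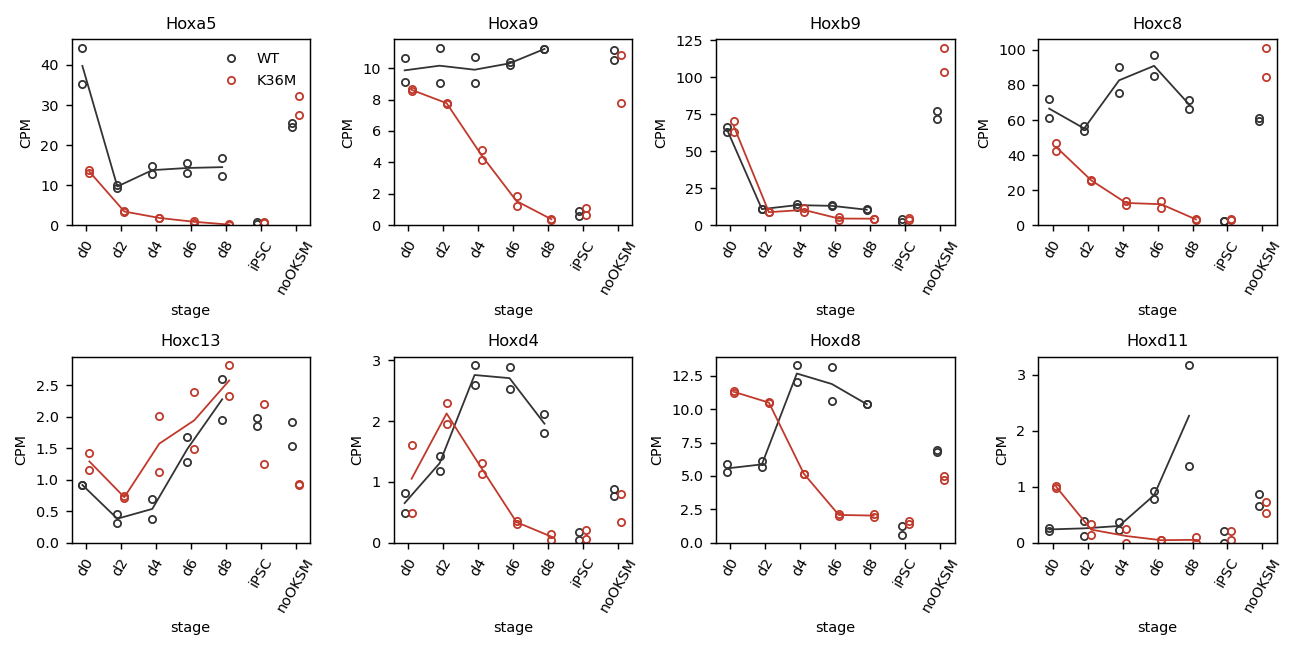
CPM of 8 members in each library (circles) by stage, by genotype, with lines through the group means from d0 to d8; each panel has its own linear axis. Hoxb9 is low in both genotypes by d2, Hoxa9 stays level in WT and is low in K36M by d8, and Hoxd8 starts higher in K36M and ends higher in WT.

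Of 7 tested members of cluster d, 4 (Hoxd8, Hoxd9, Hoxd10 and Hoxd11) were called higher in K36M at d0 and lower at d8, while Hoxd3, Hoxd4 and Hoxd13 were not called at d0 and were lower at d8. The d0 calls of Hoxd9, Hoxd10 and Hoxd11 were lost without single libraries (adjusted p from 0.0558 to 0.244). Hoxd8 stood at 5.64 and 6.10 CPM in WT and 10.5 and 10.5 in K36M at d2 (0.84 ± 0.146, adjusted p = 0.000159), and at 13.3 and 12.1 against 5.17 and 5.17 at d4 (-1.29 ± 0.148, adjusted p = 1.17e-07). The order of the genotypes was reversed between these days, with no overlap at either. Hoxd9 stood at 0.939 and 1.50 against 3.45 and 1.84 CPM at d2 (1.12 ± 0.274, adjusted p = 0.00426), and this call was lost without K36M d2 replicate 1 (0.58, adjusted p = 0.295) or WT d2 replicate 1 (0.83, adjusted p = 0.0965). At d8 Hoxd9 stood at 2.86 and 3.68 against 1.25 and 1.21 (-1.42 ± 0.266). Its call at d6 (-0.70, adjusted p = 0.0176) was lost without K36M d6 replicate 2 (-0.58, adjusted p = 0.0867) or WT d6 replicate 2 (-0.60, adjusted p = 0.102), with DESeq2 (-0.68, adjusted p = 0.0758) and with the d6 libraries alone (-0.73, adjusted p = 0.0700).

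Hoxd4 stood at 1.18 and 1.43 CPM in WT and 2.30 and 1.95 in K36M at d2, which did not pass (0.70 ± 0.349, adjusted p = 0.177), and at 2.12 and 1.80 against 0.0480 and 0.145 at d8 (-4.26 ± 0.585). Its fall at d4 (-1.18, adjusted p = 0.00600) was lost without K36M d4 replicate 1 (-1.08, adjusted p = 0.0526). Hoxd11 had 2 counts in K36M d8 against 151 in WT, a ratio of 51.1 (95% exact counting interval 13.9 to 426). Hoxd10 stood at 0.788 and 1.56 against 0.240 and 0.0968 CPM at d8 (-2.82 ± 0.571). Its calls at d4 (-1.33) and d6 (-1.32) were lost with DESeq2 (adjusted p = 0.0575 and 0.0657). At d4 they were also lost without either K36M library or WT d4 replicate 1 (-1.71 to -1.02), and at d6 without either WT library or K36M d6 replicate 2 (-1.32 to -1.18). With d6 left out, an alternative chosen after the data were seen, 26 members passed over the other days and Hoxd4, Hoxd8 and Hoxd10 no longer did (adjusted p = 0.123, 0.0948 and 0.0767).

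A pair of posterior genes did not pass as lower on any day. Hoxc13 stood at 0.371 and 0.698 CPM in WT and 2.02 and 1.13 in K36M at d4 (1.45 ± 0.375, adjusted p = 0.00225), which was lost without K36M d4 replicate 1 (0.98, adjusted p = 0.0863). At d8 it stood at 1.95 and 2.61 against 2.83 and 2.32 CPM (0.16 ± 0.272, adjusted p = 0.640), and over d2 to d8 it was higher in K36M (0.67 ± 0.234, adjusted p = 0.0224). Hoxb13, a gene of tail, prostate and hindgut, stood at 0.230 and 0.289 against 1.02 and 0.442 CPM at d6 (1.46 ± 0.589, adjusted p = 0.0319). That call was lost with DESeq2 (1.51, adjusted p = 0.163), without K36M d6 replicate 1 (0.76, adjusted p = 0.359) and without WT d6 replicate 1 or 2 (1.30 and 1.63). By contrast Hoxc12 stood at 0.689 and 0.433 CPM in WT and at 0 counts in both K36M libraries at d6, at least 8.91-fold lower, again counting 3 over the group. Hoxa11 had 3 counts in K36M d8 against 52 in WT, a ratio of 11.7 (95% exact counting interval 3.80 to 58.7).

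Within the K36M course, 25 of 35 members were lower and 2 higher at d2 than at K36M d0 (61.1% of all genes tested passed, 30.0% higher and 31.2% lower), 29 lower and 1 higher at d4 (68.9% of all genes tested passed, 36.1% higher and 32.8% lower), 31 and 1 at d6 (77.9%, 41.9% higher) and 32 and 1 at d8 (73.5% of all genes tested passed, 39.5% higher and 34.0% lower). The 2 higher at d2 were Hoxd4 (1.03 ± 0.370) and Hoxd13 (1.65). The days of one genotype share their d0 libraries.

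As iPSCs the genotypes were not told apart by edgeR's quasi-likelihood test. Of 35 members 0 passed (1.25% of all genes tested passed, 0.756% higher and 0.49% lower), 2 had an unadjusted p below 0.05, DESeq2 called 0, and 1 passed without WT iPSC replicate 2. The median log2 fold change was 0.28, and single members were imprecise: Hoxc8 was 0.33 ± 0.224, Hoxb4 -0.06 ± 0.310 and Hoxa5 0.22 ± 0.438. Hoxb9 stood at 2.41 and 4.18 CPM in WT iPSCs and 3.63 and 5.02 in K36M iPSCs. Compared with K36M d0, K36M iPSCs were lower for 32 members and higher for 0 (75.5% of all genes tested passed, 39.4% higher and 36.1% lower), with Hoxa11 going from 5.71 and 4.51 CPM to 0.208 and 0.0502 (-5.27 ± 0.444).

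K36M cells at d8 were set against K36M iPSCs in a comparison added after the values were seen. Of 35 members 11 differed, 6 higher in iPSCs and 5 lower (51.6% of all genes tested passed, 27.1% higher and 24.5% lower), and 7 did without K36M iPSC replicate 2. Higher in iPSCs than at d8 were Hoxa3 (0.934 and 0.903 against 0.192 and 0.194 CPM; 2.22 ± 0.452), Hoxa5, Hoxa9, Hoxb5, Hoxb6 (0.830 and 1.46 against 0.192 and 0.290; 2.23 ± 0.470) and Hoxb8. Those lower included Hoxd9 (0.208 and 0.301 against 1.25 and 1.21 CPM; -2.24 ± 0.445), Hoxc4, Hoxc6 and Hoxc10. By group means 20 of 35 members were lower at K36M d8 than in K36M iPSCs.

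MEFs without OKSM were compared between genotypes as MEFs outside the reprogramming course. Of 35 members 11 passed, 4 higher and 7 lower (35.0% of all genes tested passed, 18.2% higher and 16.7% lower), and Spearman's rho with the paralogue number was -0.06. Hoxc8, lower in K36M at d0, was higher here, with 84.8 and 101 CPM against 59.2 and 61.2 in WT (0.63 ± 0.131, adjusted p = 0.000661). Hoxb9 stood at 119.6 and 104 against 77.3 and 71.9 CPM (0.58 ± 0.150) and Hoxc9 at 21.2 and 25.6 against 14.9 and 17.1 (0.55 ± 0.143). Hoxb13 stood at 0.932 and 0.765 against 0.210 and 0.0403 (2.65 ± 0.617). For these 4 genes the genotypes did not overlap.

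Among those lower in K36M noOKSM were Hoxc12 (3 counts against 70, a ratio of 21.7 with a 95% exact counting interval of 7.14 to 108), Hoxd10, Hoxc13 (0.932 and 0.917 against 1.92 and 1.53 CPM; -0.90 ± 0.327), Hoxa10 (9.74 and 10.6 against 16.9 and 16.5), Hoxb2 and Hoxd8 (5.00 and 4.66 against 6.92 and 6.78; -0.50 ± 0.151). Hoxa5 stood at 25.6 and 24.6 CPM in WT and 27.5 and 32.3 in K36M and did not pass (0.26 ± 0.158, adjusted p = 0.227). The count of 11 fell to 6 without K36M noOKSM replicate 2 and to 6 without WT noOKSM replicate 1. Without either of these libraries Hoxc9 (adjusted p = 0.0918 and 0.0757) and Hoxd8 (0.0944 and 0.0690) no longer passed. Hoxb9 no longer passed without WT noOKSM replicate 2 (adjusted p = 0.0503). Hoxc13 (adjusted p = 0.0673) and Hoxd10 (0.113) did not pass with DESeq2, nor without K36M noOKSM replicate 1 or 2 or WT noOKSM replicate 1 (up to 0.226 and 0.377).

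The change of the K36M difference from d0 to noOKSM was tested as an interaction and passed for 15 of 35 members, 7 towards higher and 8 towards lower in K36M (25.1% of all genes tested passed, 12.8% higher and 12.2% lower), and for 8 without WT d0 replicate 1. Towards higher went Hoxa5 (1.82 ± 0.230, adjusted p = 6.08e-06), Hoxa4, Hoxc8 (1.20 ± 0.188), Hoxb7, Hoxc9, Hoxa7 and Hoxb4, 6 of them central genes. Towards lower went Hoxd10 (-2.61 ± 0.593, adjusted p = 0.00271), Hoxa11 (-1.88 ± 0.360), Hoxd8 (-1.53 ± 0.213), Hoxd9, Hoxc11, Hoxc13, Hoxa10 and Hoxc12. The names of the noOKSM libraries begin MHb9 and those of the others MHb8, so the library series and the MEF state cannot be told apart. Within WT, 4 members were higher (Hoxa10, Hoxa11, Hoxc11 and Hoxc12) and 1, Hoxa5 (-0.66 ± 0.159), lower in noOKSM than at d0 (8.2% of all genes tested passed, 4.15% higher and 4.06% lower), with 3 calls without WT d0 replicate 1 and 2 without WT noOKSM replicate 1. Within K36M 10 were higher and 6 lower (34.5% of all genes tested passed, 18.8% higher and 15.6% lower). Macrophage markers summed to 10.9 and 11.3 CPM in WT noOKSM and 7.07 and 9.25 in K36M noOKSM, and epithelial markers to 16.5 and 19.5 against 193 and 215; their part in these differences was not tested.

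**Figure D5:**
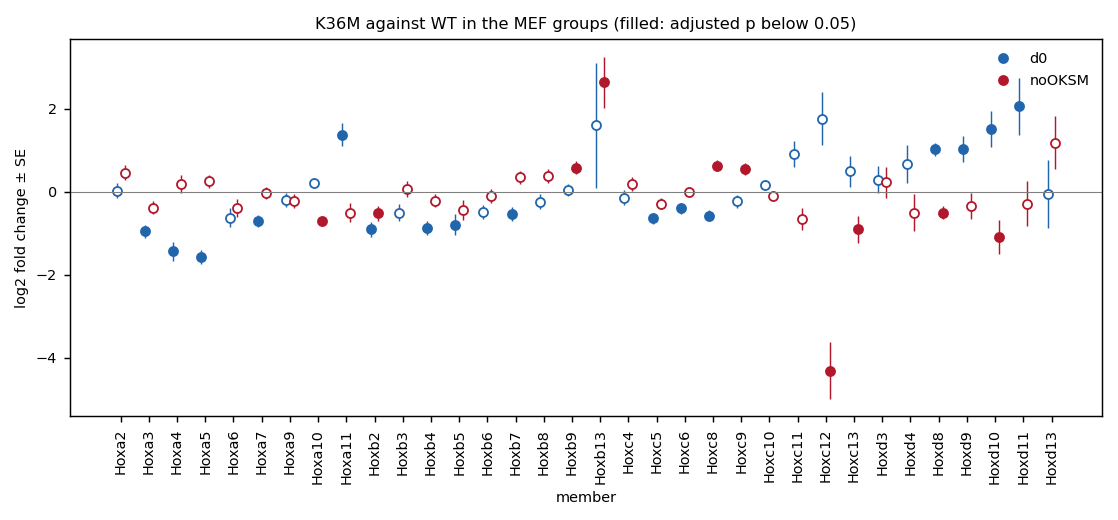
Log2 fold change of K36M against WT (vertical, ± SE) for 34 tested members (horizontal) in MEFs at d0 and in MEFs without OKSM; filled points passed the test. Hoxa5 lies at -1.57 at d0 and 0.26 without OKSM, and Hoxd8 at 1.02 and -0.50.

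Genes that work with or on the Hox clusters were read from lists. Of 9 TALE cofactors, the homeodomain partners of Hox proteins, 3 were higher and 5 lower in K36M over d2 to d8, and 0 passed at d0. Over all genes tested 30.2% were higher and 28.2% lower over d2 to d8, and 15.9% passed at d0. Meis2 stood at 33.6 and 35.2 CPM in WT d8 and 8.82 and 9.58 in K36M d8 (-1.12 ± 0.219 over d2 to d8). Meis1 was higher in K36M, with 15.8 and 15.4 CPM in WT and 27.0 and 27.4 in K36M at d8 (0.46 ± 0.106 over d2 to d8). In WT iPSCs against d0 6 of the 9 were lower (37.4% of all genes tested), among them Meis2 (-4.75), Meis1 (-4.28) and Meis3 (-3.43).

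Of 12 tested among 29 noncoding genes that lie inside the clusters, 9 were lower and 0 higher in K36M over d2 to d8 (30.2% of all genes tested were higher and 28.2% lower; median -1.79), with Gm15050 at -2.87 ± 0.407. In WT iPSCs 10 of the 12 were lower than at d0 (37.4% of all genes tested), with a median of -3.28. Several noncoding genes inside the clusters, such as Hoxb3os and Hoxa11as, overlap Hox exons on the opposite strand. Without the strand setting, their counts cannot be told apart from those of the Hox genes. Of 20 tested genes on either side of the clusters 5 were higher and 6 lower over d2 to d8, with a median of 0.03 against 0.02 over all genes tested. Among them Skap2 was lower (-1.58 ± 0.114) and Calcoco2 higher (3.12 ± 0.356).

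Of 27 Polycomb and Trithorax genes, which silence the Hox clusters or keep them open, 10 were higher and 9 lower in K36M over d2 to d8 (median 0.08), close to the 30.2% higher and 28.2% lower of all genes tested, and 1, Phc2 (-0.36 ± 0.0900), was lower at d0 (8.31% of all genes tested). Phc1 (1.32 ± 0.139) and Cbx7 (1.29 ± 0.140), which belong to Polycomb repressive complex 1, were higher and Phc3 (-1.26 ± 0.239) lower. In WT iPSCs against d0 16 were higher and 9 lower (40.1% and 37.4% of all genes tested), with Cbx7 at 6.90 and Phc1 at 4.61 on the log2 scale. The list of 9 Cdx and retinoic acid genes mixes inputs that switch on Hox genes in the embryo with Cyp26b1, which breaks retinoic acid down. Over d2 to d8, 5 were higher in K36M and 1, Cyp26b1 (-2.40 ± 0.344), lower (30.2% of all genes tested were higher and 28.2% lower). At d0 the retinoic acid receptor Rarb was lower in K36M (-2.50 ± 0.245) and Cyp26b1 higher (1.71 ± 0.193), where 15.9% of all genes tested passed. The list summed to 142 and 160 CPM in WT d0 and to 174 and 176 in K36M d0. Its part in the Hox difference was not tested.

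Limb and trunk position genes outside the clusters gave 10 lower and 2 higher of 14 tested over d2 to d8 (30.2% of all genes tested were higher and 28.2% lower; median -1.80), with Tbx2 at -3.42 ± 0.433 and Emx2 at -2.97 ± 0.491. Head mesenchyme genes gave 3 lower and 2 higher of 8, near those shares. Fibroblast markers were lower for 10 of 12 and higher for 0 (median -1.82), and pluripotency and epithelial markers were higher for 12 of 12 and 12 of 12. Summed fibroblast markers at d8 were 6707 and 7073 CPM in WT and 1209.7 and 1224 in K36M, pluripotency markers 379 and 386 against 1938 and 1951, and their part in the Hox difference was not tested.

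Across the 14 group means of log2 CPM, the genes outside the clusters most like the mean of the tested members were Npr2, a natriuretic peptide receptor (r = 0.990), Dok1 (0.988), Gm16836 (0.987), C1qtnf3 (0.986) and Emp3 (0.983), given as a description over groups that share a time course. Dok1 stood at a mean of 169 CPM in WT d0, 103 in WT d8, 7.78 in WT iPSCs and 11.6 in K36M d8. Among the members themselves Hoxa7 (0.987), Hoxb4 (0.985) and Hoxa6 (0.984) lay closest to that mean, of which they are part, and Hoxc13 (-0.47) and Hoxb13 (-0.04) farthest.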

How the data were processed

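Poly(A) RNA was measured in 28 mouse libraries, 2 for each of 14 groups. The authors deposited raw counts per gene; STAR 2.5.0, HTSeq 0.11.2, edgeR and mm9 are named in the submitters' processing notes, and the strand setting is not given in the sources used here. Per the labels' protocols, libraries were made with a directional kit. Columns were matched to samples by library number, genotype and replicate.

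From the counts, edgeR 4.0.16 (R 4.3.3) was run with TMM scaling, a filter on low counts (minimum count 10, minimum total 15), all 14 groups in one fit and the quasi-likelihood test, for 16932 genes; a second fit of the 4 reprogramming days, with a term for day, covered 15954 genes. P-values were adjusted by Benjamini-Hochberg over all genes tested, with a threshold of 0.05. CPM values are counts over the scaled library size, and SE was derived from the fold change and the F statistic. The edgeR fit was run on simulated data with the same spread for all genes and changes placed only in well-counted genes. That run does not cover members with few counts. GENCODE vM1 gave positions and exon lengths for 37205 of the 37620 identifiers. Counting intervals and floors cover counting error only.

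Alternatives were DESeq2 1.42.0, another scaling, no filter on low counts, the replicate number as a block, the libraries of a stage alone and leaving out each library. The members and lists were chosen with earlier results of these data known. Members described in full were the 3 most abundant per kilobase of each cluster, the largest rise and fall called in each comparison and those called in opposite directions at different stages; Hoxa4, Hoxa10, Hoxb8, Hoxd3 and Hoxd13 were added after their values were seen, as were Meis1 and the TALE levels. Some genes of the lists and one member's own values are not reported here and are left out of the figures, but stay in the counts.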

Additional observations from a re-analysis of the deposited data

Results flagged for a closer look

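The difference between K36M and WT MEFs changed between d0 and noOKSM for 15 of the 35 tested Hox genes, by the interaction term of edgeR's quasi-likelihood test. Of all genes tested 25.1% passed it. On the log2 scale, the noOKSM difference minus the d0 difference was above 0 for Hoxa4 (1.62), Hoxc8 (1.20), Hoxc9 (0.78), Hoxa7 (0.68), Hoxa5 (1.82), Hoxb4 (0.66) and Hoxb7 (0.88). It was below 0 for Hoxa10 (-0.92), Hoxc13 (-1.40), Hoxc11 (-1.57), Hoxd8 (-1.53), Hoxa11 (-1.88), Hoxd9 (-1.38), Hoxc12 (-6.08) and Hoxd10 (-2.61). The size for Hoxc12 is uncertain, since K36M noOKSM holds 3 counts of it. The 2 MEF states also differ in library series, which cannot be told apart from the state.

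The K36M difference at the later stages of the course departed from that at d0 for 34 of the 35 members, in a joint test over d2, d4, d6, d8 and iPSC. Of all genes tested 75.8% passed this joint test.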

How the results depend on the processing

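No Hox result changed direction under any alternative that was run. Without a filter on low counts, 9 members in place of 5 differed between WT noOKSM and WT d0. Leaving out 1 library gave 8 to 13 calls in place of 16 for K36M against WT at d0, 0 to 1 in place of 0 at iPSC and 6 to 10 in place of 11 at noOKSM. It gave 2 to 5 calls in place of 5 for WT noOKSM against WT d0, 5 to 8 in place of 12 for WT d4 against WT d2, 7 to 9 in place of 11 for K36M iPSC against K36M d8, and 8 to 13 in place of 15 for the change from d0 to noOKSM. The cause was not tested. The other counts of calls stayed within 1.5 times. DESeq2 called 17, 17, 26, 31, 33, 0 and 8 members for K36M against WT at d0, d2, d4, d6, d8, iPSC and noOKSM; the joint test over stages was not run with it.

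Replicate numbers did not pair the libraries: of 91 pairs of groups 7 had a correlation of deviations above 0.1, and 1 of the 7 pairs of the same stage did. With the replicate block, 17 members were called for K36M against WT at d0 and 12 at noOKSM, and no count of calls moved by more than 1 from that without the block. Low counts of several posterior members limit what could be detected.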
